A study of Mus musculus with 11 samples.

Results

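The insulin-like growth factor (IGF) family was described in MLTC-1 mouse Leydig tumor cells (MLTCs), an established line from a tumor of the testosterone-producing cells of the testis. The family was taken as 10 genes, namely the ligands *Igf1* and *Igf2*, the receptors *Igf1r* and *Igf2r*, and the binding proteins *Igfbp2*, *Igfbp3*, *Igfbp4*, *Igfbp5*, *Igfbp6*, and *Igfbp7*. The array carried 15 probes for these 10 genes, of 17016 genes named on the array, among 41174 probes in all. Of these, 11 probes of 8 genes passed the filter on dim probes, which kept a probe where all arrays of some group read it as well above background, as did 24250 probes of the whole array. The family was proposed with earlier results of these data known, including a higher *Igfbp5* level with siRNA2, so that the differences of its members are given as a description without p-values.

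The study compared MLTCs transfected with 1 of 2 siRNAs against *Mamld1* (siRNA1, 4 arrays; siRNA2, 3 arrays) with MLTCs transfected with the non-targeting control RNA 4611G (control, 4 arrays). All cells received RNA at 20 nM, and 300 ng of total RNA per sample was labelled with Cy3. The labels place the extraction 48 h after transfection. By the methods of the study, the cells were harvested with the medium for steroid measurement, shortly after human chorionic gonadotropin (hCG), which acts on the LH receptor, had been given to every group. The study made the comparison to learn what a reduced *Mamld1* level does to gene expression in Leydig cells. The cells carried no engineered allele. They were a tumor line, the knockdown was transient, and nothing said that replicates came from separate cultures, so that p-values measure the spread between these samples only.

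The 11 arrays lay on 3 slides, each of which held all 3 groups. The 75th percentile of the signal, to which each array was scaled, differed by group. It was 469.7 to 581.7 units in control, 600.7 to 773.8 with siRNA1, and 488.4 to 578.8 with siRNA2. All siRNA1 arrays thus lay above all others before scaling, and the levels with siRNA1 depend on this scaling. The lowest signal well above background was 6.94 to 8.90 units, and no spot was saturated. The targeted gene, *Mamld1*, was lower than in control by 0.93 ± 0.20 (SE) on the log2 scale with siRNA1 (limma adjusted p = 0.00571), where the 4 arrays stood at 44.1% to 77.0% of control. With siRNA2 the log2 difference was -0.77 ± 0.22 (adjusted p = 0.0309), and the adjusted p rose to 0.0516 to 0.119 without control array 3 or 4, or siRNA2 array 1 or 3. Neither difference reached 2-fold in this fit, on a dim probe with a mean control signal of 28.8 units. With slide as a block the log2 difference was -1.05 ± 0.15 with siRNA1, past 2-fold, and -0.83 ± 0.16 with siRNA2. By real-time PCR, the study reported a marked reduction of *Mamld1* mRNA with both siRNAs. All 7 Leydig cell markers, *Star*, *Cyp11a1*, *Hsd3b1*, *Cyp17a1*, *Nr5a1*, *Lhcgr*, and *Insl3*, were above background on every array. Of the markers of other testis cells, 2 of 5 Sertoli, 1 of 5 germ cell, 1 of 4 macrophage, 3 of 5 fibroblast or peritubular, and 1 of 5 endothelial genes were above background on every array. The summed level of the Sertoli list, in multiples of the array's 75th percentile, was 2.73 to 3.05 in control, 2.46 to 3.05 with siRNA1, and 4.23 to 5.10 with siRNA2. That of the endothelial list was 0.809 to 0.887, 1.61 to 2.18, and 1.41 to 1.71, respectively. For the Leydig list it was 455.6 to 599.1, 418.5 to 485.5, and 511.8 to 619.6, without overlap between the siRNAs. *Cdh5* of the endothelial list and *Ddx4* of the germ cell list differed from control with siRNA1 by an adjusted p of 0.05 and a fold of 2. The sums include genes that were not above background on every array. The part of these shifts in the results below was not tested. In bulk RNA, fewer cells of a type and less RNA per cell cannot be told apart.

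IGF1 and IGF2 are secreted peptides that act through the type 1 receptor, a tyrosine kinase, whereas the type 2 receptor, which also carries mannose 6-phosphate-tagged enzymes to lysosomes, takes up and clears IGF2. The binding proteins hold the ligands in the extracellular fluid and on the matrix, and can either withhold them from the receptor or deliver them to it, while secreted proteases cut the binding proteins and free the ligands. In the testis, IGF1 made locally and in the liver promotes Leydig cell growth and steroid production.

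The 250 bases before the RefSeq start are shown for 3 genes, *Igfbp5*, which was highest with siRNA2, *Igf1r*, which was lowest with siRNA2, and *Igfbp4*, which was low with both siRNAs. They come from RefSeq promoter windows of GRCm38.p6 and run 5′ to 3′ on the gene's strand, at chr1:72874866-72875115 (minus strand), chr7:67952007-67952256 (plus strand), and chr11:99040994-99041243 (plus strand), in that order. Capitals mark matches on either strand to a TATA box (TATAAA), a GC box (GGGCGG), or a CCAAT box (CCAAT).

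Igfbp5: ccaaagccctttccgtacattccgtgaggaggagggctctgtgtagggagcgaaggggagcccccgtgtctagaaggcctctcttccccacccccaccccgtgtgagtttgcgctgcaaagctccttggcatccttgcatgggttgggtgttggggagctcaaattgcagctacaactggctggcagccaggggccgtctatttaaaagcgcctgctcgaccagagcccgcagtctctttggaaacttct

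Igf1r: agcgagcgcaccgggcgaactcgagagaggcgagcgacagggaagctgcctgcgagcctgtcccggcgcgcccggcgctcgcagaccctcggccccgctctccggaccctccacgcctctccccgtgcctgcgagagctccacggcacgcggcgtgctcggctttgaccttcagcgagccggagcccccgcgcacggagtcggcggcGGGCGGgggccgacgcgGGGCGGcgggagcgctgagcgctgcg

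Igfbp4: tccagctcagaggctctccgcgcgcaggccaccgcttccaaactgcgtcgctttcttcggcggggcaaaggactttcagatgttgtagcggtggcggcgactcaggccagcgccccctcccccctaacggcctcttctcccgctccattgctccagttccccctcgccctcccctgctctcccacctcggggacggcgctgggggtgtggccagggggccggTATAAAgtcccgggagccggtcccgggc

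The window of *Igf1r* was 77.6% G or C and held 2 GC boxes, which began 43 and 26 bases before the start. That of *Igfbp4* was 69.2% G or C and held 1 TATA box, 28 bases before the start. That of *Igfbp5*, at 58.8% G or C, held none of the 3 motifs in these letters. Among 32851 RefSeq windows of this length, 12.4% held TATAAA, 32.7% GGGCGG, and 33.8% CCAAT. The matches describe the sequence only.

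Levels are given for each array as a percent of control, that is of the geometric mean over its 4 arrays, after each array was scaled to its own 75th percentile. Probes of 1 gene are numbered from the brightest. A probe is called when its limma p-value, adjusted by the Benjamini-Hochberg method over all 24250 tested probes, is at most 0.05 and the fold change is at least 2. By this rule 2 of the 11 tested family probes were called with siRNA2 (*Igfbp5* higher, *Igfbp4* lower), beside 2.25% of all tested probes. None was called with siRNA1, beside 2.99% of all probes. At an unadjusted limma p of 0.05 with no fold threshold, 4 passed with siRNA1, beside 38.3% of all tested probes. The methods' t-test at an unadjusted p of 0.05 and also a fold of 2 gave 0. Between the siRNAs 1 was called (*Igfbp5*), beside 3.36% of all probes. The arrays of the groups compared did not overlap on 4 family probes with siRNA1, 8 with siRNA2, and 5 between the siRNAs, beside 29.1%, 28%, and 31.3% of all tested probes. Since the family was chosen from these contrasts, nothing is read from these counts.

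**Figure D1:**
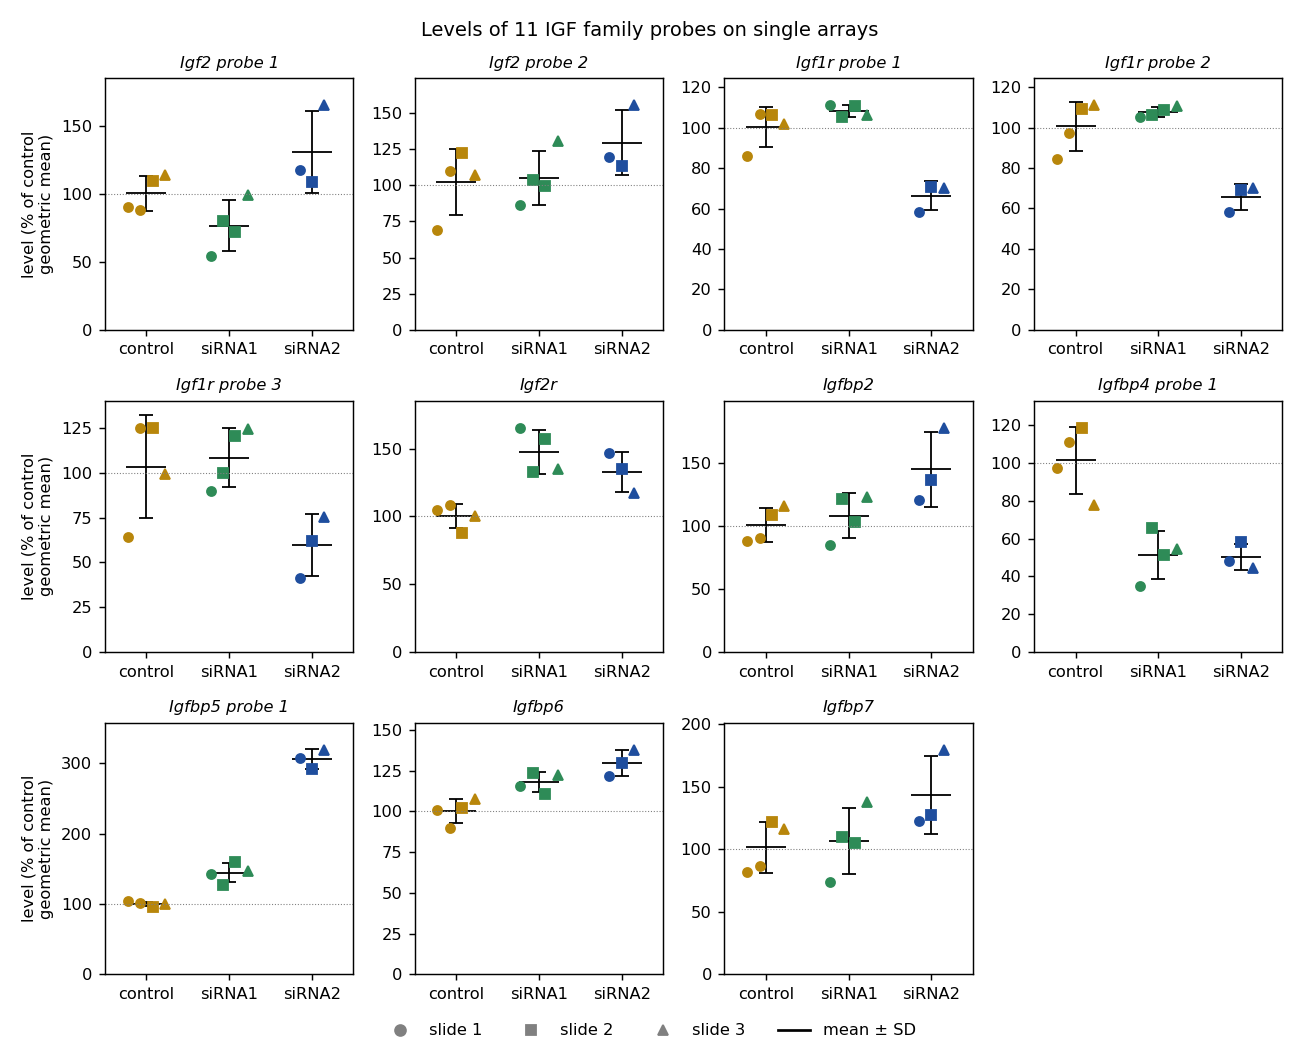
Level of each of the 11 tested IGF family probes on single arrays, as a percent of the control geometric mean (vertical axis, linear, from 0), by group. Symbols give the slide and bars the mean ± SD; *Igfbp5* probe 1 stands at 291.6% to 319.3% on the siRNA2 arrays, and both brighter *Igf1r* probes at 58.1% to 70.5%.

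Among the ligands, *Igf2*, the fetal growth factor of the pair, was measured and *Igf1* was not. On *Igf2* probe 1 (mean control signal of 51.9 units), control MLTCs gave 90.5%, 88.6%, 109.4%, and 114%, siRNA1-transfected MLTCs 54.3%, 80.6%, 72.5%, and 99.7%, and siRNA2-transfected MLTCs 117.8%, 109.2%, and 165.5%. All siRNA1 arrays were lower than all siRNA2 arrays, and each of these groups overlapped the control. The log2 difference was -0.42 ± 0.19 (SE) with siRNA1, 0.36 ± 0.20 with siRNA2, and -0.78 ± 0.20 for siRNA1 minus siRNA2. Within slides 1, 2, and 3, siRNA1 minus siRNA2 was -1.12, -0.52, and -0.73. *Igf2* probe 2 was close to background, with a mean control signal of 10.1 units, and was above it on 2 of 4 control arrays. Its log2 differences were 0.06 ± 0.19 with siRNA1 and 0.36 ± 0.20 with siRNA2, so that the probes differed in the direction for siRNA1. With a normexp background correction, chosen after the data were seen, which adds an offset and so narrows the differences of dim probes, probe 2 gave -0.04 with siRNA2, and probe 1 gave -0.46 for siRNA1 minus siRNA2. The *Igf1* probe was not well above background on any array, with a mean control signal of 1.96 units, and no fold is given.

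The receptors moved in different ways. *Igf1r*, which carries the signal of both ligands, was lower with siRNA2 than in both other groups. On its brightest probe control MLTCs gave 86.1%, 106.8%, 106.5%, and 102.1%, siRNA1-transfected MLTCs 111.1%, 105.2%, 111.0%, and 106.1%, and siRNA2-transfected MLTCs 58.1%, 70.5%, and 70.4%. Thus the siRNA2 arrays lay below every other array, whereas the siRNA1 arrays overlapped the control. The log2 difference with siRNA2 was -0.60 ± 0.10 on probe 1 and -0.61 ± 0.11 on probe 2. Probe 3, dimmer with a mean control signal of 47.3 units, gave -0.79 ± 0.26, and its siRNA2 arrays at 41.5% to 75.6% overlapped the lowest control array at 64.4%. With the normexp correction probe 3 gave -0.35. With siRNA1 the difference was 0.11 on all 3 probes (SE 0.10, 0.10, and 0.24). For siRNA1 minus siRNA2 it was 0.71 ± 0.10, 0.72 ± 0.11, and 0.89 ± 0.26, with no overlap on any of the 3 probes. Within the slides, siRNA2 minus control on probe 1 was -0.72, -0.60, and -0.54.

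*Igf2r*, the clearance receptor for IGF2, was higher with both siRNAs. Control MLTCs gave 104.6%, 108.5%, 88.0%, and 100.1%, siRNA1-transfected MLTCs 165.5%, 132.8%, 157%, and 134.7%, and siRNA2-transfected MLTCs 146.8%, 134.7%, and 117.6%. Neither siRNA group overlapped the control, and the siRNA groups overlapped each other. The log2 difference was 0.55 ± 0.11 with siRNA1 and 0.41 ± 0.12 with siRNA2, and that between the siRNAs was 0.15 ± 0.12. Within slides it was 0.43 to 0.71 with siRNA1 and 0.23 to 0.61 with siRNA2.

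**Figure D2:**
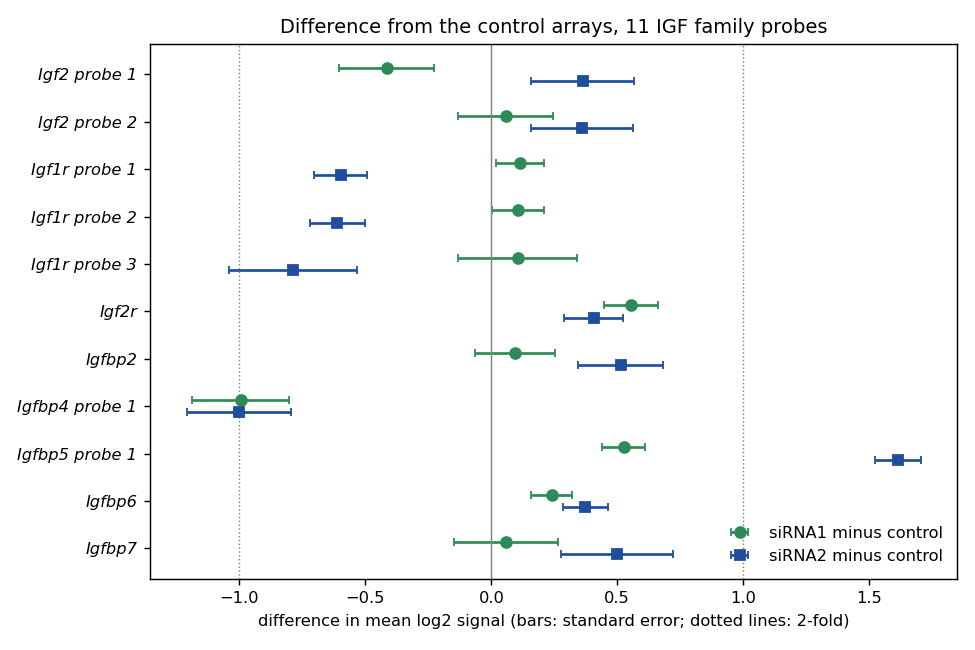
Difference in mean log2 signal from the control arrays (horizontal axis) for each tested IGF family probe, for siRNA1 (circles, 4 arrays) and siRNA2 (squares, 3 arrays), with standard errors and dotted lines at 2-fold. The 3 *Igf1r* probes lie between -0.60 and -0.79 with siRNA2 and at 0.11 with siRNA1, and *Igfbp5* lies at 0.52 with siRNA1 and 1.61 with siRNA2.

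Among the binding proteins, *Igfbp5*, which binds matrix and is the most conserved of the family, differed most from control. On probe 1, with a mean control signal of 235 units, control MLTCs gave 103.9%, 101%, 95.7%, and 99.7%. With siRNA1 the level was 143%, 127%, 159.8%, and 147%, and with siRNA2 it was 308%, 292%, and 319%. The 3 groups did not overlap, in the order control, siRNA1, siRNA2. It differed from control by 0.52 ± 0.08 (log2) with siRNA1 and 1.61 ± 0.09 with siRNA2, or 3.06-fold, and siRNA1 minus siRNA2 was -1.09 ± 0.09. With the normexp correction the difference between the siRNAs was -0.95, under 2-fold. Within slides 1, 2, and 3 the difference was 0.48, 0.57, and 0.56 with siRNA1, and 1.59, 1.61, and 1.68 with siRNA2. *Igfbp5* probe 2 was dim, and was above background on 1 of 4 control, 0 of 4 siRNA1, and 2 of 3 siRNA2 arrays. Its siRNA2 arrays, at 206.9%, 248.5%, and 319%, overlapped the control arrays, at 70.3%, 96.6%, 208.9%, and 70.5%. Within slides 1, 2, and 3, siRNA2 minus control on this probe was 1.33, 0.25, and 2.18. For siRNA2 against siRNA1, each siRNA1 array was set to the higher of its own value and the lowest signal well above background. The mean of all 3 siRNA2 arrays was then 1.67-fold that of siRNA1. This is not a lower bound, since siRNA2 array 1, at 9.98 units, was itself not well above background.

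*Igfbp4*, which as a rule withholds IGF from its receptor and is cut by pappalysin, was lower with both siRNAs but close to background. On probe 1 control MLTCs gave 97.2%, 111.2%, 118.6%, and 78.0%, siRNA1-transfected MLTCs 34.8%, 65.4%, 51.1%, and 54.4%, and siRNA2-transfected MLTCs 48.1%, 57.9%, and 44.6%. Both siRNA groups lay below the control and overlapped each other. The mean signal was 20.5 units in control, 13.1 with siRNA1, and 10.8 with siRNA2, and the spot was above background on 4 of 4, 3 of 4, and 2 of 3 arrays. It passed the filter only through the control arrays. The mean level was 51.4% ± 12.7 (SD, n = 4) with siRNA1, just outside the 2-fold threshold, and 50.2% ± 6.91 (n = 3) with siRNA2, just inside it, so that the single call does not set the siRNAs apart. siRNA1 array 1 and siRNA2 array 3, the lowest of their groups, were not well above background. With the normexp correction the log2 differences were -0.41 and -0.32. The call with siRNA2 was lost with quantile normalization, with median scaling, and without control array 2 or 3, or siRNA2 array 1 or 3, and siRNA1 was called with slide as a block and without control array 1 or 4, or siRNA1 array 2, 3, or 4. *Igfbp4* probe 2 and the probe of *Igfbp3*, the main IGF carrier of serum, were not well above background on any array.

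*Igfbp6*, which prefers IGF2, was higher with both siRNAs by small amounts. Control MLTCs gave 100.8%, 90.0%, 102.1%, and 107.9%, siRNA1-transfected MLTCs 115.9%, 123.9%, 110.7%, and 122.1%, and siRNA2-transfected MLTCs 121.5%, 129.9%, and 137.8%. Neither siRNA group overlapped the control. On the log2 scale, the level differed by 0.24 ± 0.08 with siRNA1 and 0.37 ± 0.09 with siRNA2, and within slides the latter was 0.35 on all 3.

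*Igfbp2*, a binding protein of fetal and tumor cells, and *Igfbp7*, a matrix protein that binds IGF weakly, were higher with siRNA2. For *Igfbp2*, control MLTCs gave 87.9%, 90.4%, 108.7%, and 115.8%, siRNA1-transfected MLTCs 85.1%, 120.8%, 102.7%, and 123.1%, and siRNA2-transfected MLTCs 120.2%, 136.2%, and 177.6%. The siRNA2 arrays lay above the control and overlapped siRNA1. The log2 difference was 0.51 ± 0.17 with siRNA2 and 0.09 ± 0.16 with siRNA1. For *Igfbp7*, control MLTCs gave 81.8%, 86.4%, 121.8%, and 116.2%, siRNA1-transfected MLTCs 73.8%, 110.1%, 104.6%, and 137.8%, and siRNA2-transfected MLTCs 122.9%, 127.7%, and 179.4%. Again the siRNA2 arrays lay above the control, the lowest of them by a narrow margin, and overlapped siRNA1. The log2 difference was 0.50 ± 0.22 with siRNA2 and 0.06 ± 0.21 with siRNA1.

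The slide moved with the level of some of these genes. On the control arrays of slides 1, 2, and 3, *Igf2* probe 1 stood at 89.5%, 109.4%, and 114%, *Igfbp2* at 89.1%, 108.7%, and 115.8%, and *Igfbp7* at 84.1%, 121.8%, and 116.2%. For all 3 genes slide 1 held the lowest siRNA1 array, and slide 3 the highest array of either siRNA. The deviations of the 11 arrays from their group means correlated between these genes (Pearson's r of 0.96 for *Igf2* and *Igfbp7*, 0.94 for *Igfbp2* and *Igfbp7*, and 0.92 for *Igf2* and *Igfbp2*), and with the slide means also removed r was 0.93, 0.63, and 0.75. The deviations of *Igf2r* ran the other way, with r of -0.82 for *Igf2*, -0.89 for *Igfbp2*, and -0.86 for *Igfbp7*. With the slide means also removed these were -0.69, -0.82, and -0.65. These arrays share slides and scaling, and the values are a description. Within slides, siRNA2 minus control for *Igfbp7* was 0.55, 0.07, and 0.63, and for *Igf2* probe 1 it was 0.40, -0.0024, and 0.54, whereas for *Igfbp2* it was 0.43, 0.32, and 0.62. The standard errors fell with slide as a block, for *Igfbp7* with siRNA2 from 0.22 to 0.12. With this block 5 of the 11 family probes passed an adjusted p of 0.05 with siRNA1 and 9 with siRNA2, beside 35.8% and 25.5% of all probes, against 3 and 6 without it, beside 27% and 18.4%. Between the siRNAs it was 7, beside 32.1% of all probes, against 5 without the block, beside 23.5%, and the probes added were those of *Igfbp2* and *Igfbp7*. For siRNA1 minus siRNA2, *Igfbp2* gave -0.43 ± 0.09 and *Igfbp7* -0.45 ± 0.12 with the block, and within slides 1, 2, and 3 these were -0.50, -0.29, and -0.53, and -0.74, -0.25, and -0.38.

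**Figure D3:**
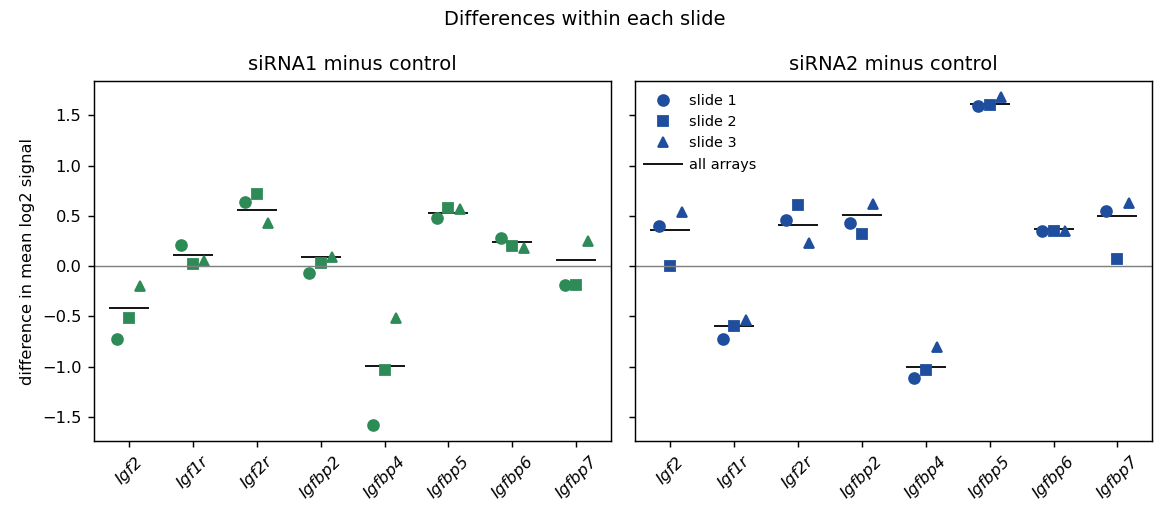
Difference in mean log2 signal from control within each of the 3 slides (symbols) and over all arrays (bars) for the brightest probe of 8 IGF family genes, with siRNA1 on the left and siRNA2 on the right. The 3 slides lie at 1.59 to 1.68 for *Igfbp5* with siRNA2, and spread from 0.07 to 0.63 for *Igfbp7*.

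The genes with a pattern most like *Igfbp5* probe 1 across the 11 arrays were *Spp1* (osteopontin, a secreted matrix protein; Pearson's r of 0.987), *Smoc2* (a matricellular calcium-binding protein; 0.977), *Slco2b1* (an organic anion transporter; 0.975), *Zbtb44* (a zinc finger protein; 0.973), and *Cpeb3* (a translation regulator that binds mRNA; 0.972). They were ranked among the 16998 tested probes with a gene symbol, less those of *Igfbp5*, with 1 probe kept per gene. The r values rest mostly on the spacing of the 3 groups. With siRNA1 the level of *Spp1* was 126.5% ± 6.09 (SD, n = 4) and with siRNA2 it was 192% ± 5.58 (n = 3), beside 144% ± 13.5 and 306.5% ± 13.9 for *Igfbp5*. The other 4 genes stood at 107% to 128% with siRNA1 and 147% to 176% with siRNA2.

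Other genes of the IGF axis were examined as a list of 47, of which 41 had a named probe and 25 had at least 1 of 33 tested probes. Of the 33 probes, 1 was called with siRNA1, 1 with siRNA2, and 2 between the siRNAs. The shares of all tested probes called were 2.99%, 2.25%, and 3.36%, in that order. By an adjusted p of 0.05 alone, 7 rose and 2 fell with siRNA1, 6 rose and 5 fell with siRNA2, and 7 were higher and 5 lower with siRNA1 than with siRNA2. Of all tested probes, 11.8% were higher and 15.2% lower with siRNA1, 7.7% higher and 10.7% lower with siRNA2, and 11.7% higher and 11.8% lower with siRNA1 than with siRNA2, or 27%, 18.4%, and 23.5% in all. The median log2 difference of the list was 0.03, 0.09, and 0.01, beside -0.05, -0.01, and -0.04 for all tested probes. *Adam12* and *Ccn5* were called, and the other genes named next were chosen after their values were seen. No tested probe was found for *Igfbp1*, *Igfals*, *Igfbpl1*, or *Vtn*, the list of other binding proteins and complex partners.

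The proteases that cut binding proteins, with their inhibitors, held 10 tested probes of 7 genes. At an adjusted p of 0.05 by limma with no fold threshold, 1 rose and 4 fell with siRNA2 and 1 rose and 1 fell with siRNA1. Of all tested probes, 7.7% were higher and 10.7% lower with siRNA2, and 11.8% and 15.2% with siRNA1. Nothing is read from these counts. *Adam12*, a metalloprotease that can cut *Igfbp3* and *Igfbp5* protein, fell with siRNA2. Its brightest probe stood at 99.5%, 86.5%, 112%, and 103.8% on the control arrays, 79.7%, 71.0%, 106.1%, and 93.1% with siRNA1, and 44.2%, 43.2%, and 41.0% with siRNA2. The siRNA2 arrays lay below all others, and siRNA1 overlapped the control. The log2 change was -1.23 ± 0.14 with siRNA2 (limma adjusted p = 0.00014) and -0.21 ± 0.13 with siRNA1 (adjusted p = 0.256), and siRNA1 minus siRNA2 was 1.02 ± 0.14 (adjusted p = 0.000344). The second *Adam12* probe fell by 0.94 with siRNA2 (adjusted p = 0.000232) and by 0.41 with siRNA1 (adjusted p = 0.0152). With the normexp correction, the brightest probe changed by -0.67 with siRNA2 (adjusted p = 0.000176), under 2-fold.

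*Stc2*, a stanniocalcin that inhibits pappalysin, fell with siRNA2 by 0.85 ± 0.10 (adjusted p = 0.00019) to 50.1%, 56.7%, and 59.8% of control. With siRNA1 it stood at 87.6% to 106%, a log2 difference of -0.06 ± 0.09 (adjusted p = 0.702). *Htra1*, a secreted serine protease that can cut *Igfbp5* protein, rose with siRNA2 by 0.84 ± 0.12 (adjusted p = 0.000645) to 167%, 171%, and 202%. With siRNA1 it stood at 86.6% to 120.3% (0.03 ± 0.11, adjusted p = 0.877). The related *Htra3* fell with siRNA2 on its brighter probe by 0.40 ± 0.11 (adjusted p = 0.026), whereas its second probe stood at -0.11 ± 0.10 (adjusted p = 0.502), and *Htra4* rose with siRNA1 by 0.41 ± 0.11 (adjusted p = 0.0139). The difference between the siRNAs passed the test for *Stc2*, *Htra1*, the brighter *Htra3* probe, and *Htra4* (adjusted p = 0.000216, 0.000589, 0.00554, and 0.0289), but not for the second *Htra3* probe (adjusted p = 0.236).

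**Figure D4:**
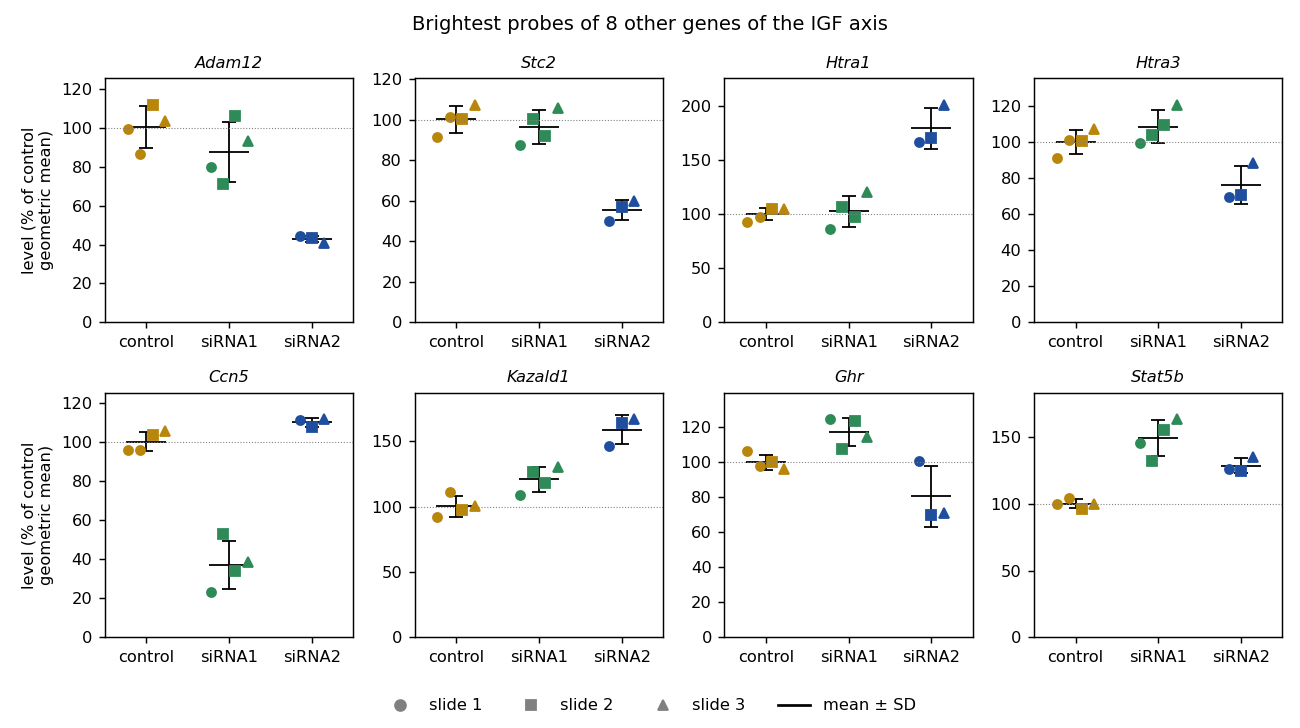
Level on single arrays, as a percent of the control geometric mean (vertical axis, linear, from 0), of the brightest probe of 8 other genes of the IGF axis, chosen after their values were seen; symbols give the slide and bars the mean ± SD. *Adam12* stands at 41.0% to 44.2% on the siRNA2 arrays and *Ccn5* at 23.4% to 52.8% on the siRNA1 arrays.

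Of the other proteins with an IGFBP domain, 2 had a tested probe. *Ccn5*, a matricellular growth regulator, fell with siRNA1. It stood at 95.8%, 95.7%, 103.2%, and 105.6% in control, 23.4%, 52.8%, 33.8%, and 38.2% with siRNA1, and 111.1%, 107.4%, and 111.4% with siRNA2. The siRNA1 arrays lay below all others, and those of siRNA2 lay just above the control. The log2 change was -1.49 ± 0.19 with siRNA1 (adjusted p = 0.000223) and 0.14 ± 0.21 with siRNA2 (adjusted p = 0.735), and siRNA1 minus siRNA2 was -1.63 ± 0.21 (adjusted p = 0.000231). With the normexp correction, the change with siRNA1 was -0.56 (adjusted p = 0.000802), under 2-fold, on a probe with a mean control signal of 34.6 units. *Kazald1*, a secreted protein with a Kazal domain, rose by 0.27 ± 0.09 with siRNA1 (adjusted p = 0.0481) and by 0.67 ± 0.10 with siRNA2 (adjusted p = 0.000848).

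The growth hormone input, which drives *Igf1* transcription in many tissues, and the Igf transcription factors held 8 tested probes of 5 genes. At an adjusted p of 0.05 by limma, 4 rose with each siRNA and none fell. Of all tested probes, 11.8% were higher with siRNA1 and 7.7% with siRNA2. The 4 were probes of *Ghr* and *Stat5b* with siRNA1, and of these genes and *Stat5a* with siRNA2, and nothing is read from their count. *Ghr*, the growth hormone receptor, rose with both siRNAs on 2 probes, by 0.59 ± 0.08 and 0.53 ± 0.08 with siRNA1 (adjusted p = 0.000392 and 0.000807) and by 0.68 ± 0.09 and 0.52 ± 0.09 with siRNA2 (adjusted p = 0.000378 and 0.00217). The brightest *Ghr* probe differed from these, at 0.23 ± 0.12 with siRNA1 (adjusted p = 0.173) and -0.33 ± 0.13 with siRNA2 (adjusted p = 0.0938). *Stat5b*, the transcription factor downstream of this receptor, rose on its brighter probe by 0.57 ± 0.08 with siRNA1 (adjusted p = 0.000473) and 0.36 ± 0.09 with siRNA2 (adjusted p = 0.0158). Its second probe rose by 0.44 ± 0.10 with siRNA1 (adjusted p = 0.00789) and stood at 0.03 ± 0.11 with siRNA2 (adjusted p = 0.891). The related *Stat5a* rose by 0.33 ± 0.07 with siRNA2 (adjusted p = 0.00766) and stood at 0.00 ± 0.07 with siRNA1 (adjusted p = 0.973).

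The insulin receptor family and the adaptors below the receptors held 10 tested probes of 9 genes. Of these, 1 rose with siRNA1, the adaptor *Grb14*, by 0.23 ± 0.08 (adjusted p = 0.0442), and none passed the test with siRNA2. Of all tested probes, 27% passed it with siRNA1 and 18.4% with siRNA2. The median log2 difference of this list was -0.03 with siRNA1 and 0.07 with siRNA2. *Igf2bp2*, which binds *Igf2* mRNA, fell with siRNA2 by 0.41 ± 0.11 (adjusted p = 0.0272). Of the imprinted neighbours of *Igf2* and *Igf2r* *Ins2* was the one gene tested, with 2 probes that did not pass the test in any comparison.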

How the data were processed

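Total RNA of 11 samples was hybridised, 1 labelled sample per array, to 1-color Agilent arrays of 41174 probes. Per the file headers, the deposited signal intensities were made with Feature Extraction 9.5.1.1, with its own background subtraction and spatial detrending on each array and no scaling between arrays. The deposited files also gave spot and local background median intensities and other marks (0 or 1) for spots that were outliers, saturated, or well above background, likewise not normalized. A deposited table of group averages was not used.

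Each array was divided by the 75th percentile of its non-control signals and log2 was taken, outlier-marked spots were dropped, and spots of a probe were averaged. RefSeq accessions named 24375 probes through a table of GRCm38.p6. The array design was annotated on an older build, so no probe positions are given. limma 3.58.1 (R 4.3.3) was fitted to all 11 arrays in 3 groups over the 24250 tested probes. One probe, of *Grb2*, lacked 1 control value in the fit. The family, the gene lists, and the tests were chosen with earlier results of these data known. The genes named were the family, axis genes called in any comparison, *Mamld1*, and the 5 genes most like *Igfbp5*, and others are marked where they appear. The methods of the study name Student's t-test or Mann-Whitney's U-test, and the series' design text an unpaired t-test for the deposited table. The t-test, called the methods' t-test, was run as an alternative. Alternatives were 2 versions of normexp background correction with an offset of 50, quantile and median scaling, 2 filters, slide or replicate number as a block, separate fits, other test options, and leaving out single arrays. The number of arrays limits the precision.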

Additional observations from a re-analysis of the deposited data

Results flagged for a closer look

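In groups of 4 arrays, 36 sets of values were examined for an array far from the rest, of which chance gives about 1 in 20, and 2 stood out. For *Igfbp3* with siRNA1, array 3 stood at 79.1% of control and the others at 87.1% to 87.7%, a gap of 0.933 of the range, on a probe that was not well above background on any array. For *Mamld1* with siRNA1, array 2 stood at 77.0% and the others at 44.1% to 48.1%, a gap of 0.847 of the range.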

How the results depend on the processing

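*Igfbp5* with siRNA2, for which the family was proposed, stood at log2 differences of 1.41 to 1.65, and at 1.34 with the normexp correction fitted to all spots. That correction, the one planned, took parameters also from spots far below their local background, by -45876.5 units at the extreme, and its fitted background came to -475, -663, and -509 units on siRNA1 arrays 2 and 4 and siRNA2 array 2. With it, 193, 92, and 70 of all probes were called with siRNA1, with siRNA2, and between the siRNAs, together with 0, 0, and 0 axis probes and 0, 1, and 0 family probes. It turned the sign of *Igfbp4* with siRNA1 and siRNA2 (0.71 and 0.39), *Igf2* probe 1, *Igfbp2*, *Igfbp6*, *Igfbp7*, and *Igf1r* probe 1 with siRNA1 (0.51, -0.19, -0.11, -0.21, and -0.0070), *Igf2* probe 2 between the siRNAs (0.27), *Igf1r* probe 3 with siRNA2 (0.26), *Ccn5* with siRNA1 (0.51, adjusted p = 0.574), and *Mamld1* with siRNA1 and siRNA2 (0.65 and 0.44, adjusted p = 0.492 and 0.749), and gave -0.12 for *Adam12* with siRNA2 (adjusted p = 0.893) and 0.45 with siRNA1 (adjusted p = 0.486). A second normexp correction, the one given above beside single genes and chosen after seeing the data, left 2 to 5 spots of 4 arrays out of its fit and gave 208, 188, and 285 called probes, 0, 0, and 0 axis probes, and 0, 1, and 0 family probes. It turned the sign of none of the differences just named, but turned *Igf2* probe 2 with both siRNAs (-0.15 and -0.04) and *Igf1r* probe 3 with siRNA1 (-0.10), and narrowed *Igfbp5* between the siRNAs to -0.95. The methods' t-test called 727, 544, and 813 probes at an unadjusted p of 0.05 and a fold of 2, and 687, 479, and 730 after Benjamini-Hochberg adjustment. An adjusted p of 0.05 alone gave 6553, 4472, and 5709 probes, 9, 11, and 12 axis probes, and 3, 6, and 5 family probes. With siRNA2, 1 family probe was called after quantile normalization, 1 after median scaling, and 1 with a filter on all 11 arrays. With slide as a block, 1 was called with siRNA1. Without single arrays, family probes called were 0 to 1 with siRNA1, 1 to 2 with siRNA2, and 1 to 2 between the siRNAs, and axis probes 1 to 2 with siRNA2 and 1 to 2 between the siRNAs, the latter 1 without siRNA1 array 3 or 4 or siRNA2 array 3 (*Adam12* at 0.92 to 0.98). *Igf1r* probe 3 was called between the siRNAs without siRNA2 array 3 (1.08). The adjusted p of *Mamld1* with siRNA2 was over 0.05 also with no filter (0.0763) and by the methods' t-test (0.0898), both at a log2 difference of -0.77, and with the second normexp correction (0.262, at -0.19).

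The replicate numbers were not taken to pair the arrays, since deviations of same-numbered arrays did not all correlate above 0.1. These correlations ranged from -0.18 to 0.53 (median 0.30 over 10 pairs), and 13 pairs on a shared slide had a median of 0.30 too. Pairs that shared both number and slide are in both sets, at r of 0.08 to 0.53. The 2 medians therefore do not separate number from slide. The median was -0.10 over 30 pairs of different number and -0.13 over 27 pairs on different slides. Slide was not part of the main fit, only of the block alternative. A replicate block left 1 axis probe called between the siRNAs (*Adam12* at 0.99).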
